A study of Mus musculus with 8 samples.

Results

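The neuregulin and ErbB genes described here are 6 of the 29844 Ensembl genes in a table of coding gene counts: the receptor genes Erbb2, Erbb3, Erbb4 and Egfr and the ligand genes Nrg1 and Hbegf. They were chosen by symbol, and each symbol matched 1 row of the table. The cells were primary cardiomyocytes from the hearts of mouse embryos (labelled E18.5; B6.Cg-Tg(HIST1H2BB/EGFP)1Pa/J mice), so that cells on both substrates carried the same H2B-eGFP transgene, a fluorescent histone fusion. Hearts were dissected and digested, and the cells spent 4 days in medium with serum on the silicone rubber polydimethylsiloxane, until they were confluent and beating. The soft group (4 libraries) was grown on rubber of about 10 kPa and the stiff group (4 libraries) on rubber of about 150 kPa. The comparison asks how the stiffness under the cells affects these transcripts. The labels name no step that separates cardiomyocytes from the other cells of the heart, and give no litter or culture for a library, so the p-values speak of the variation among these 8 libraries, part of which may be technical.

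ErbB receptors are receptor tyrosine kinases that work in pairs. A ligand with an EGF-like domain binds Egfr, Erbb3 or Erbb4, the bound receptor pairs with a second receptor, and the pair signals through the RAS-MAPK and PI3K-AKT routes. Erbb2 has no known ligand of its own and acts as the partner, whereas Erbb3 binds neuregulins but has little kinase activity and depends on its partner. In the developing heart, neuregulin 1 is released mainly by endocardial and endothelial cells and acts on Erbb2 and Erbb4 of cardiomyocytes, a signal needed for trabeculation and for cardiomyocyte growth. Heparin-binding EGF (Hbegf) is shed from the cell surface, binds Egfr and Erbb4, and takes part in shaping the valves.

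All 6 genes were well covered, with 287 to 9423 counts per gene and library out of coding totals of 27646471 to 34693673, and all 6 passed the filter on low counts that left 14059 genes for testing. Levels are normalised counts (CPM, the count scaled to a fixed library size) after TMM scaling, which adjusts library totals for composition. The sources used here give no transcript lengths, so levels are compared between libraries for a gene and not between genes. Cardiomyocyte markers were present in every library, with 15 genes summing to 21763 to 39435 CPM on soft and 21322 to 34033 CPM on stiff (Actc1, cardiac actin, averaged 5859 and 5405 CPM). Markers of other heart cells were present too. Summed CPM ran from 8487 to 14954 on soft and 7792 to 12346 on stiff for 10 fibroblast genes, from 2394 to 3909 and 2223 to 3350 for 10 mural cell genes, from 881 to 1343 and 846 to 1082 for 10 epicardial genes, from 228 to 339 and 256 to 409 for 12 endothelial genes, and from 121 to 183 and 112 to 166 for 9 macrophage genes. Of 8 Schwann and neural crest genes, Mbp made up most of the sum, and Sox10 and Foxd3, which define these cells, were at 0 in 5 and 7 of the 8 libraries. None of the 7 sums passed an exact permutation test between substrates (two-sided, smallest possible p = 0.0286): the lowest p was 0.400, for mural cells, and the adjusted p was 0.943 for each. Between soft and stiff libraries of equal number, the fibroblast sum was lower on stiff in 4 of 4, the one sum with the same direction in all (two-sided exact sign-flip permutation p = 0.125, the smallest that 4 pairs allow, adjusted p = 0.875; a comparison added after the data were seen). Col1a2 was the largest part of the fibroblast sum, with a mean of 4793 CPM (soft) and 4016 CPM (stiff). Taken gene by gene, the 10 fibroblast markers were divided. By edgeR estimate 5 were up on stiff and 5 were down, and their median log2 fold change was 0.01. The lower sum was thus not shared by all its genes. In such bulk libraries, fewer cells of a type and less RNA per cell cannot be told apart.

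No receptor or ligand passed the test between stiff and soft. By edgeR's quasi-likelihood test with Benjamini-Hochberg adjustment over all 14059 genes, 0 of the 6 were called (0.00% of all tested genes were), and the adjusted p was 0.99997 for each. At an unadjusted p under 0.05 there were also 0 of 6, against 0.925% of all tested genes. Evenly spread p-values would put a share of 0.05 there, and a smaller share of genes reached it in this fit. The reason was not tested, and the lack of a call does not show that a gene is unchanged. The soft and stiff libraries overlapped for all 6, and did not overlap for 1.29% of tested genes. Estimates were higher on stiff for Erbb2, Erbb3 and Nrg1 and lower for Erbb4, Egfr and Hbegf, that is higher for 3 of 6 (48.1% over all tested genes). The median log2 fold change of the 6, -0.01, was that of all tested genes to 2 decimals. The widest spread between libraries lay in Erbb3, Nrg1 and Erbb4, as the following values show.

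**Figure D1:**
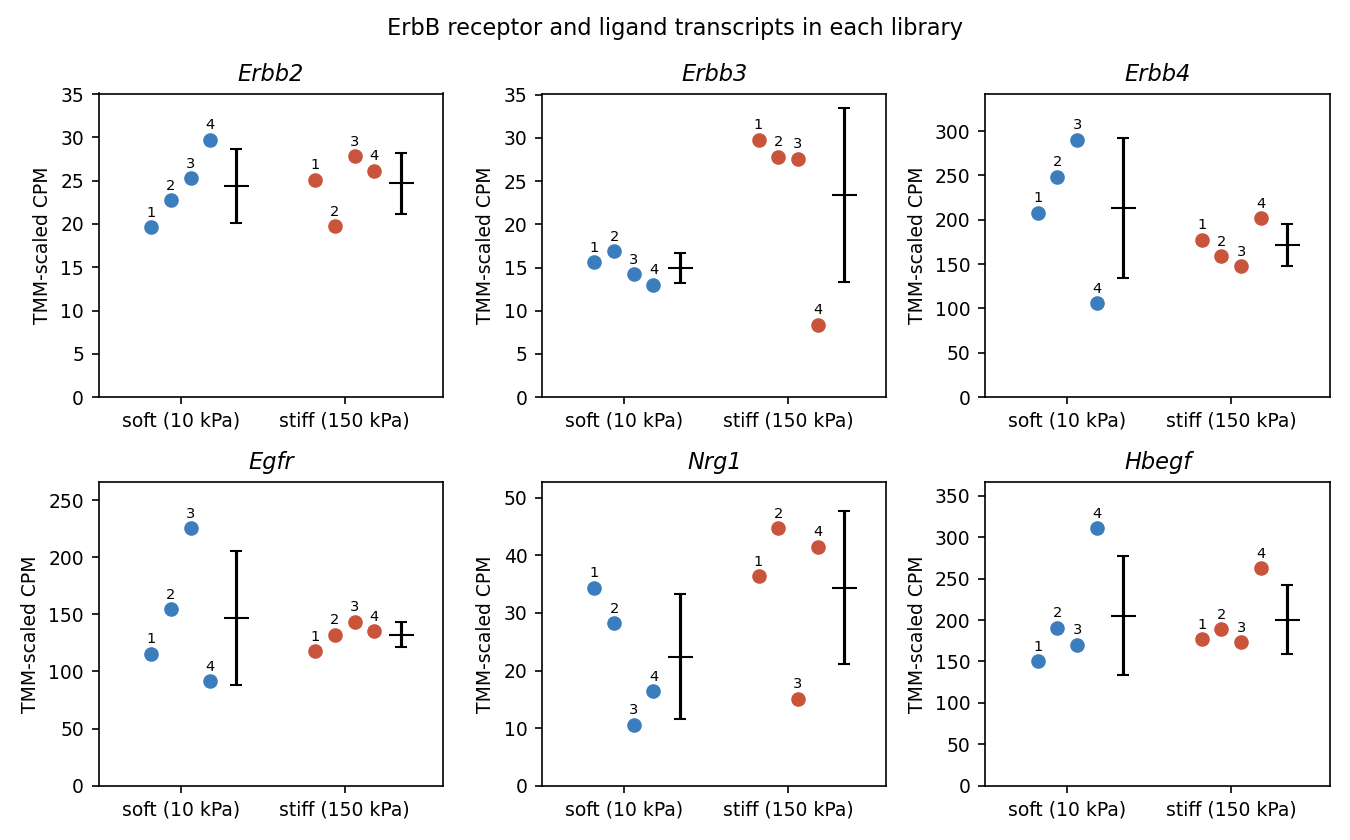
TMM-scaled CPM (y axis, from 0, a scale of its own in each panel) of each receptor and ligand gene in the 4 soft (blue) and 4 stiff (red) libraries; each point is a library with its number, and the black bar with whiskers is the mean ± SD (n = 4). The groups overlap in every panel; stiff 4 lies below all other libraries for Erbb3, soft 4 for Erbb4, and both number 3 libraries are the lowest of their substrate for Nrg1.

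Erbb2, the receptor without a ligand and the common partner of the others, was the steadiest of the 6. It lies at chromosome 11 from 98412484 to 98437716 (positions of RefSeq genes on GRCm38.p6 here and below). Its levels were 19.6, 22.7, 25.3 and 29.7 CPM in soft 1 to 4 and 25.1, 19.7, 27.8 and 26.2 CPM in stiff 1 to 4. The lowest and the highest of the 8 values were both soft, and the stiff values lay between them. The soft mean was 24.3 ± 4.26 CPM and the stiff mean 24.7 ± 3.50 CPM (SD, n = 4 each). The log2 fold change was 0.02 (standard error 0.24). The unadjusted 95% interval of the ratio of stiff to soft ran from 0.715 to 1.44. Its SD between libraries of a substrate, 0.23 on the log2 scale, was lower than that of most genes (percentile 16.2 of the tested genes, where the median SD was 0.41).

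Erbb3, the receptor that binds neuregulin with little kinase activity of its own, had a higher mean on stiff and 1 library that went the other way. The gene lies at chromosome 10 from 128567523 to 128589635. Its levels were 15.6, 16.9, 14.2 and 12.99 CPM in soft 1 to 4. On stiff they were 29.8, 27.8, 27.6 and 8.38 CPM. Stiff 1, 2 and 3 were above every soft library, whereas stiff 4 was below every one of them. The soft mean was 14.9 ± 1.70 CPM and the stiff mean 23.4 ± 10.1 CPM, with a log2 fold change of 0.65 (standard error 0.34), an interval of the ratio from 0.951 to 2.58 and an unadjusted edgeR p of 0.0751. Without stiff 4 the log2 fold change was 0.93 (edgeR adjusted p = 0.99998). Erbb3 is also a gene of Schwann cells. The summed Schwann and neural crest markers ran from 44.3 to 49.7 CPM on soft and from 24.6 (stiff 3) to 56.1 CPM (stiff 1) on stiff, mostly Mbp, and Sox10 and Foxd3 were at 0 in both of those stiff libraries. Over the 8 libraries Erbb3 and that sum had r = -0.22 (exact permutation p = 0.650) and rho = 0.31 (exact permutation p = 0.462). Beyond this correlation, the part of these cells in the Erbb3 level was not tested.

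Erbb4, the neuregulin receptor of cardiomyocytes, had a lower mean on stiff and a wide range on soft. The gene spans 1076693 bases of chromosome 1, from 68031884 to 69108576. Its levels were 208, 248, 290 and 106 CPM in soft 1 to 4 and 177, 159, 147 and 201 CPM in stiff 1 to 4. The stiff libraries kept to a narrow band; soft 3 was the highest of all and soft 4 the lowest. The soft mean was 213 ± 78.9 CPM and the stiff mean 171 ± 23.6 CPM, with a log2 fold change of -0.32 (standard error 0.25), an interval of the ratio from 0.560 to 1.15 and an unadjusted edgeR p of 0.217. Without soft 4 the log2 fold change was -0.53 (edgeR adjusted p = 0.99990), and the 3 remaining soft libraries were all above the 4 stiff ones. Without soft 3, the highest, it was -0.13. Soft 4 was also the library with the highest sum of cardiomyocyte markers, 39435 CPM where soft 1 to 3 had 21763 to 23281 CPM. Stiff 4 had the highest such sum on stiff, 34033 CPM, and also the highest Erbb4 level on stiff, 201 CPM. Beyond the correlation given below, the part of the cardiomyocyte sum in the Erbb4 level was not tested.

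Egfr, the receptor of EGF and heparin-binding EGF, followed a similar order on soft. It lies at chromosome 11 from 16752203 to 16913907. Its levels were 116, 155, 225 and 91.6 CPM in soft 1 to 4 and 118, 132, 144 and 135 CPM in stiff 1 to 4. Soft 3 was again the highest and soft 4 the lowest of the 8 libraries, and the stiff libraries lay between. The means were 147 ± 58.4 and 132 ± 10.8 CPM, with a log2 fold change of -0.15 (standard error 0.23) and an interval of the ratio from 0.644 to 1.26. Its sign depended on soft 3: without it the log2 fold change was 0.13.

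Nrg1, the neuregulin ligand that acts on Erbb3 and Erbb4, had a higher mean on stiff. The gene spans 1084158 bases of chromosome 8, from 31807452 to 32891609, with 43 RefSeq transcripts, and gene counts do not tell its isoforms apart. Its levels were 34.4, 28.2, 10.6 and 16.5 CPM in soft 1 to 4 and 36.4, 44.7, 15.1 and 41.5 CPM in stiff 1 to 4. The number 3 library was the lowest of its substrate on both, and stiff 3 lay below soft 1, 2 and 4, so that the substrates overlapped. The soft mean was 22.4 ± 10.8 CPM and the stiff mean 34.4 ± 13.3 CPM, with a log2 fold change of 0.62 (standard error 0.38), an interval of the ratio from 0.871 to 2.70 and an unadjusted edgeR p of 0.127. With each library left out in turn, the log2 fold change ran from 0.38 (without soft 3) to 0.90 (without soft 1).

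Hbegf, the ligand gene for Egfr and Erbb4, lies at chromosome 18 from 36504927 to 36515805. Its levels were 150, 191, 170 and 311 CPM in soft 1 to 4. On stiff they were 177, 189, 173 and 263 CPM. The number 4 library was the highest on both substrates, and the other 6 libraries lay between 150 and 191 CPM. The means were 205 ± 72.2 and 200.5 ± 42.1 CPM, with a log2 fold change of -0.03 (standard error 0.22) and an interval of the ratio from 0.703 to 1.35. Without soft 4 the log2 fold change was 0.24 (edgeR adjusted p = 0.99990).

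The spans of all 6 genes overlap those of other RefSeq genes, among them the coding gene Mien1 for Erbb2 and the coding gene Gm3985 with 6 long noncoding genes for Nrg1. Whether exons overlap was not examined here and the use of strand in counting is not given in the sources used here, so reads from such stretches are uncertain.

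**Figure D2:**
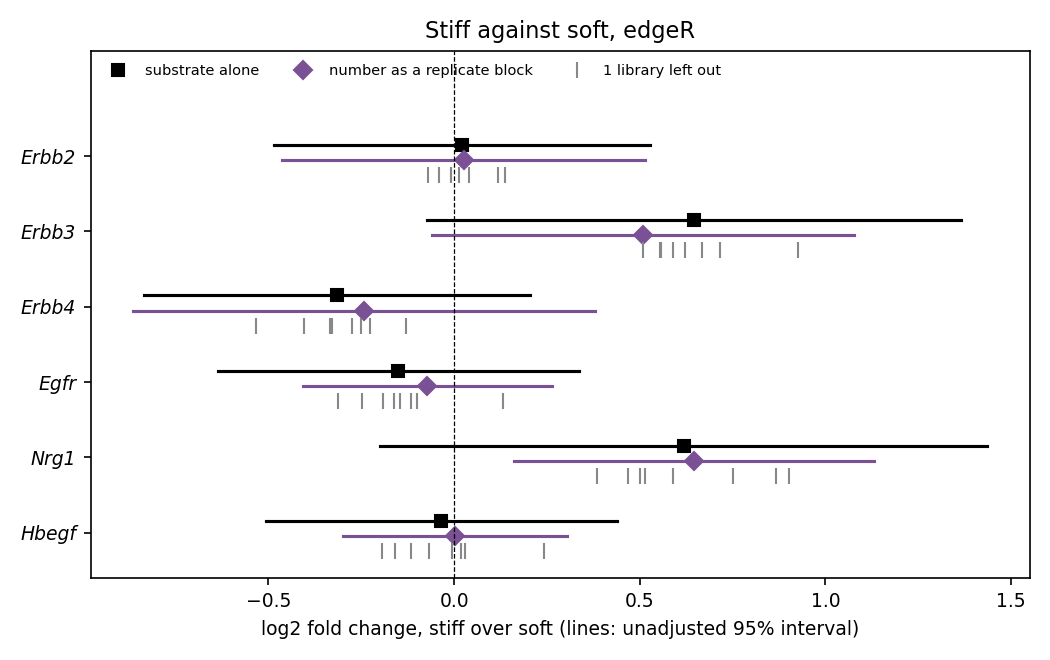
Log2 fold change of each gene, stiff over soft (x axis), from edgeR with substrate alone (black squares) and with the library number as a replicate block (purple diamonds), with unadjusted 95% intervals as lines; grey ticks are the estimates with 1 library left out. All 6 black intervals cross 0, and the purple interval of Nrg1 (0.16 to 1.13) does not.

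The libraries carry numbers 1 to 4 on each substrate, the last digit of their codes. The rest of the code is shared within a substrate and differs between substrates. What it stands for is not given, and it cannot be told apart from stiffness. Libraries of equal number deviated together across genes (r = 0.10, 0.18, 0.13 and 0.31 for numbers 1 to 4). Soft 1 with stiff 2 (0.11) and soft 2 with stiff 1 (0.13) exceeded soft 1 with stiff 1, so numbers 1 and 2 were not clearly told apart. Differences within equal numbers were also read, a pairing drawn from these same data and not from the labels. For Nrg1, stiff minus soft on the log2 CPM scale was 0.08, 0.66, 0.51 and 1.33 for numbers 1 to 4. The stiff library was the higher of the pair in 4 of 4 for Nrg1, alone among the 6 genes, and for 4.27% of all tested genes. With the number as a replicate block in edgeR, the log2 fold change of Nrg1 was 0.65 (standard error 0.24) with an unadjusted p of 0.00984. Its adjusted p was 1. This was the one member of 6 at an unadjusted p under 0.05, a level that 2.56% of all tested genes reached in that fit. For Erbb3 the differences were 0.93, 0.72, 0.95 and -0.63, with number 4 opposite to the other 3. For Erbb4 they were -0.23, -0.65, -0.98 and 0.93, again with number 4 opposite. Egfr and Hbegf were higher on stiff in 2 of 4 numbers each, as was Erbb2. With the same block in limma-voom, an alternative chosen after the data were seen, 0 of the 6 genes were called (0.0569% of tested genes were). Nrg1 and Erbb3 were the 2 of 6 at an unadjusted p under 0.05 there, a level that 3.07% of tested genes reached.

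**Figure D3:**
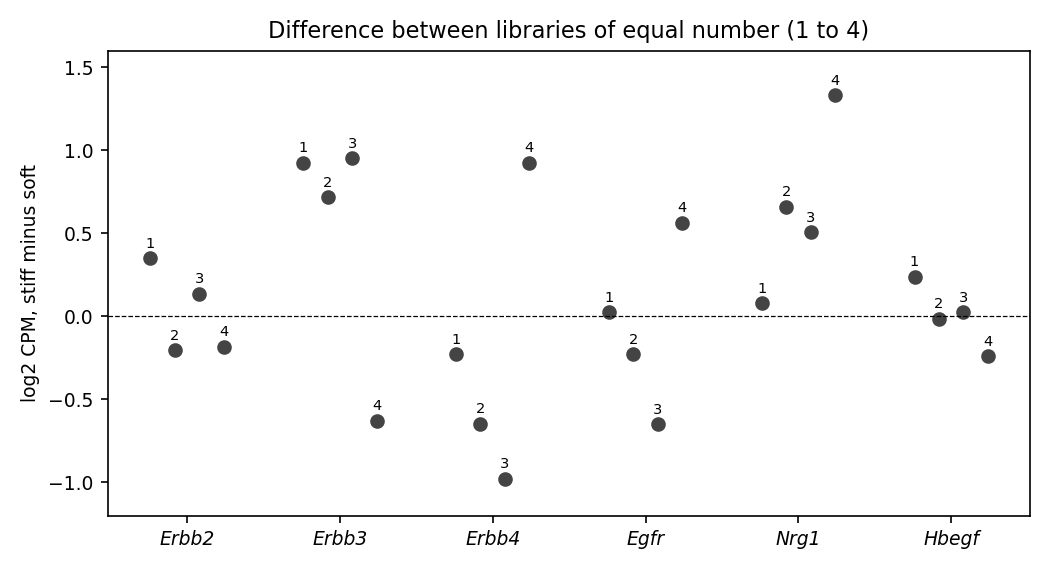
Difference in log2 CPM between the stiff and the soft library of equal number (y axis, stiff minus soft) for each gene; each point is a number, 1 to 4. Nrg1 is above 0 at all 4 numbers (0.08 to 1.33), and number 4 lies on the other side of 0 from numbers 1 to 3 for Erbb3 and Erbb4.

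Promoter windows from RefSeq (GRCm38.p6, 250 bases before to 50 after the start used in the RefSeq table, which for Erbb4 lies inside the gene's span, read 5′ to 3′ on the gene's strand) were found for Erbb4, Egfr and Erbb2. These 3 were the only members with a window, and all are shown. Erbb4 and Egfr had the highest correlation over libraries of any pair of the 6 genes, which did not pass adjustment and rested on soft 3 and soft 4. Capitals mark each match to a GC box (GGGCGG), a TEAD site (CATTCC, bound by the partner factors of YAP, which respond to stiffness), a CCAAT box (CCAAT) or a TATA box (TATAAA), searched on both strands; no 2 matches overlap. The windows are chr1:69108010-69108309 (minus strand) for Erbb4, chr11:16751953-16752252 (plus strand) for Egfr and chr11:98412234-98412533 (plus strand) for Erbb2.
Erbb4: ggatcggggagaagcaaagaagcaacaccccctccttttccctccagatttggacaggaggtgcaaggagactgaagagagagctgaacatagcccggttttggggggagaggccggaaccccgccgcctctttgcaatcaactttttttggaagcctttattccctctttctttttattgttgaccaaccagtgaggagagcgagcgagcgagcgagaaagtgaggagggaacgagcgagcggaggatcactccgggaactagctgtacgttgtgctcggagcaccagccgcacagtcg
Egfr: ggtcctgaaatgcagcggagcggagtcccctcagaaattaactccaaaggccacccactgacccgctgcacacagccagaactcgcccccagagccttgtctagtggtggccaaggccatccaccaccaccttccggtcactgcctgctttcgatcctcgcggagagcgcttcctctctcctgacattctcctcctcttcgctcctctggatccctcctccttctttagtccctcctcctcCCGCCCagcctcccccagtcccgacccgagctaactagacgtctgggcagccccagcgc
Erbb2: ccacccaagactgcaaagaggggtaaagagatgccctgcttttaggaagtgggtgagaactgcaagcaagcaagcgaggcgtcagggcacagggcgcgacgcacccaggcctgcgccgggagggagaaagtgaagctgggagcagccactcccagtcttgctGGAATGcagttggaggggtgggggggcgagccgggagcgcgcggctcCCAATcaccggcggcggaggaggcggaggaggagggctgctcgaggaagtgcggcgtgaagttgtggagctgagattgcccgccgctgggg
The Egfr window holds a GC box on the opposite strand that begins 9 bases before the start, and the Erbb2 window a TEAD site on the opposite strand 88 bases before it and a CCAAT box 41 bases before it. The Erbb4 window holds no match to any of the 4. Of 32851 windows of the same length, 35.7% hold the GC box, 14.7% the TEAD site, 37.4% the CCAAT box and 13.6% the TATA box. All 3 windows are above the median in G and C (52.7% over all windows), with 66.0% for Erbb2, 62.3% for Egfr and 55.3% for Erbb4, and in CpG pairs, with 21, 15 and 17 against a median of 7. These matches are a description of the letters only.

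Over the 8 libraries no common movement of the 6 genes was detected. Of 15 pairs, 0 passed the exact permutation test of Pearson's r after Benjamini-Hochberg adjustment. Erbb4 and Egfr had the highest correlation, with r = 0.80 (exact permutation p = 0.0199, adjusted p = 0.298) and Spearman's rho = 0.60 (exact permutation p = 0.132, adjusted p = 0.748). With the mean of each substrate subtracted it was 0.81. It rests on soft 3 and soft 4, the libraries farthest from the median of Erbb4: without them r was 0.17 (exact permutation p = 0.718). The remaining pairs ran from -0.59 for Erbb2 with Nrg1 to 0.60 for Erbb2 with Hbegf. Nrg1 had r = 0.08 with Erbb3, -0.02 with Erbb4 and -0.59 with Erbb2. With 8 libraries such values are uncertain and do not show that a relation is absent.

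Each gene was also set against the 7 marker sums, 42 relations in all, a comparison added after the data were seen. None passed the adjustment. The lowest p was that of Nrg1 and the mural cell markers (a sum mostly of Acta2 and Tagln, with 8 others), with r = -0.92 (exact permutation p = 0.00179, adjusted p = 0.0750) and rho = -0.83 (exact permutation p = 0.0154). Without soft 3 and stiff 4 r was -0.86 (exact permutation p = 0.0528). Which cells expressed Acta2 and Tagln here was not tested. Erbb2 and the macrophage sum, mostly Lyz2, had r = -0.83 (exact permutation p = 0.0124, adjusted p = 0.220). Their rho was -0.88 (exact permutation p = 0.00724). Without soft 1 and stiff 2 r was -0.53 (exact permutation p = 0.274). Lyz2 averaged 95.7 CPM on each substrate, where the whole macrophage sum averaged 143 CPM (soft) and 139 CPM (stiff). Whether the other macrophage markers follow Erbb2 was not tested. Nrg1 and the fibroblast sum had r = -0.78 (exact permutation p = 0.0315, adjusted p = 0.331) and rho = -0.67 (exact permutation p = 0.0831); without soft 3 and soft 4 r was -0.52 (exact permutation p = 0.308). Hbegf and the cardiomyocyte sum had r = 0.89 (exact permutation p = 0.0157, adjusted p = 0.220), and rho = 0.40 (exact permutation p = 0.327). Without soft 4 and stiff 4, which are highest in both, r was -0.31 (exact permutation p = 0.567), so that the relation rests on those libraries. Hbegf and the epicardial sum had r = 0.74 (exact permutation p = 0.0426, adjusted p = 0.353) and rho = 0.33 (exact permutation p = 0.428). With soft 4 and stiff 1 left out, r was 0.32 (exact permutation p = 0.586). Erbb4, a cardiomyocyte receptor, had r = -0.60 with the cardiomyocyte sum (exact permutation p = 0.121, adjusted p = 0.370) and rho = -0.48 (exact permutation p = 0.243). With soft 4 and stiff 4 left out, r was -0.42 (exact permutation p = 0.392). Nrg1 and the endothelial sum had r = 0.62 (exact permutation p = 0.0989, adjusted p = 0.370) and rho = 0.62 (exact permutation p = 0.115). With soft 3 and stiff 1 left out, r was 0.32 (exact permutation p = 0.511). Some relations not listed had a lower p than these of Erbb4 and Nrg1. An example is Egfr with the endothelial sum, at r = -0.67 (exact permutation p = 0.0672, adjusted p = 0.353).

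**Figure D4:**
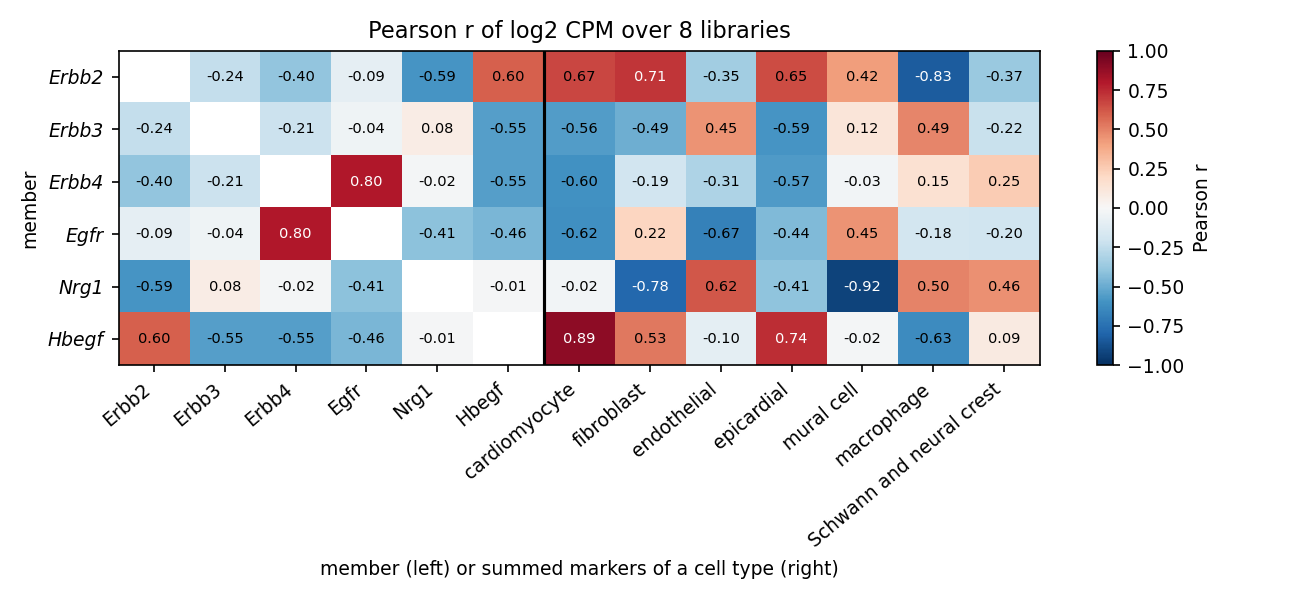
Pearson's r over the 8 libraries (colour and printed value, from -1 in blue to 1 in red) between the log2 CPM of each gene (rows) and that of the other genes (left of the line) or the log2 summed CPM of each marker list (right of the line). The highest value among the genes is 0.80 for Erbb4 with Egfr, and the values farthest from 0 among the marker lists are -0.92 for Nrg1 with mural cell markers and 0.89 for Hbegf with cardiomyocyte markers.

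The genes whose log2 CPM followed each member most closely were taken from the 9821 genes whose mean reached 10 CPM, by Pearson's r over the 8 libraries; as the top 3 of 9821 values, these are a description without a test. For Erbb2 they were Fam207a (r = 0.98), Apip (a methionine salvage enzyme, 0.97) and Aarsd1 (0.97). For Erbb3 they included Als2cl (0.95) and Rtcb (the tRNA ligase, 0.94). Erbb4 was followed by Ssbp2 (0.96), Zfp442 (0.96) and Shroom4 (0.95). Egfr was followed by Ube2e2 (a ubiquitin-conjugating enzyme, 0.96), Pkp4 (a plakophilin of cell junctions, 0.95) and Ptprg (a receptor tyrosine phosphatase, 0.94). The closest to Nrg1 were Lgr4 (a receptor of R-spondins, 0.98), Usp6nl (0.96) and Arhgef6 (an exchange factor of Rac and Cdc42, 0.95). The closest to Hbegf were Ncbp1 (a nuclear cap-binding protein, 0.98), Synm (the intermediate filament protein synemin, 0.96) and Metrnl (a secreted factor, 0.96).

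Of 89 other genes of the pathway, in 7 lists, 86 were tested and 0 were called in either direction. Their estimates were higher on stiff for 50 and lower for 36 (58.1% higher), 2 had an unadjusted edgeR p under 0.05 and 0 had substrates that did not overlap. Over all tested genes the shares were 48.1% higher on stiff, 0.925% at that p and 1.29% without overlap. The 6 tested genes among the other ErbB ligands all had higher estimates on stiff, with a median log2 fold change of 0.37. They were Tgfa (transforming growth factor alpha), Ereg (epiregulin), Btc (betacellulin), Egf, Nrg2 and Nrg4. The highest of these estimates was that of Nrg4, 0.82 (standard error 1.58), at only 0.700 CPM on soft and 1.24 CPM on stiff. Nrg2 was at 0.27 (standard error 0.86), with 2.55 and 3.08 CPM, and Egf at 0.04 (standard error 0.45), with 6.29 and 6.48 CPM. The 6 estimates kept that side of 0 with each other scaling, whereas with no filter on low counts 7 of 9 were higher, and without soft 4 or without stiff 3 it was 4 of 6. Ereg averaged 23.9 ± 12.1 CPM (SD, n = 4) on soft and 36.6 ± 26.4 CPM (SD, n = 4) on stiff, with 74.7 CPM in stiff 4 and 41.6 CPM in soft 4 as the highest of each substrate. Without stiff 4 its log2 fold change went from 0.61 to -0.0012. Btc stood at 5.88 ± 3.13 and 8.05 ± 1.62 CPM, with a log2 fold change of 0.45 (standard error 0.45) that ran from 0.20 without soft 3 to 0.84 without soft 2.

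Proteases and cofactors that release ligands or cut receptors had 4 of 13 estimates higher on stiff (median -0.04). Adam9, a sheddase, averaged 803 ± 121 CPM (soft) and 794 ± 112 CPM (stiff), and Adam10, the sheddase of betacellulin and EGF, at 243 ± 9.39 and 284 ± 35.7 CPM. Rhbdf2, an iRhom that brings ADAM17 to the cell surface, had a log2 fold change of -0.38 (standard error 0.26). Co-receptors and chaperones had 5 of 8 higher (median 0.03). Cd44, a hyaluronan receptor that can present Hbegf, stood at 166 ± 24.4 and 216 ± 37.1 CPM, with a log2 fold change of 0.38 (standard error 0.18), an unadjusted edgeR p of 0.0483 and an adjusted p of 0.99997. Cdc37, a kinase cochaperone, had a log2 fold change of -0.16, and Itgb1, the beta 1 integrin, 0.05.

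Inside the cell, the adaptors and the RAS-MAPK relay had 8 of 15 estimates higher on stiff (median 0.04), with Sos2, a RAS exchange factor, at 0.23 (standard error 0.20) and the kinase gene Map2k1 at -0.07 (0.19). The PI3K-AKT and focal kinase relay had 6 of 15 higher (median -0.05). In that list Stat5a, a transcription factor that can be activated through Erbb4, averaged 8.50 ± 2.44 CPM (soft) and 14.3 ± 3.66 CPM (stiff). Its log2 fold change was 0.75 (standard error 0.33), with an unadjusted edgeR p of 0.0377 and an adjusted p of 0.99997. Soft 4, at 12.1 CPM, was above stiff 4, at 10.0 CPM. Akt1 had a log2 fold change of -0.34 (standard error 0.22), which was -0.09 without soft 4.

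Negative regulators of the receptors had 11 of 16 estimates higher on stiff (median 0.04), with Lrig3 at 0.63 (standard error 0.45), the ubiquitin ligase gene Cbl at 0.24 (0.21) and Spred1, an inhibitor of the MAPK route, at 0.14 (0.18). Genes that respond to ERK, the end of the MAPK route, had 10 of 13 higher with a median of 0.04. That count was 4 of 13 without stiff 4 and 5 of 13 without soft 1 or without soft 3, with medians of -0.09, -0.09 and -0.11. Ier3 averaged 154 ± 60.1 CPM (soft) and 122 ± 32.3 CPM (stiff), and Myc 16.01 ± 3.63 and 12.97 ± 4.25 CPM. The medians of these lists lay between -0.05 and 0.04 apart from the other ligands, beside -0.01 for all tested genes.

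**Figure D5:**
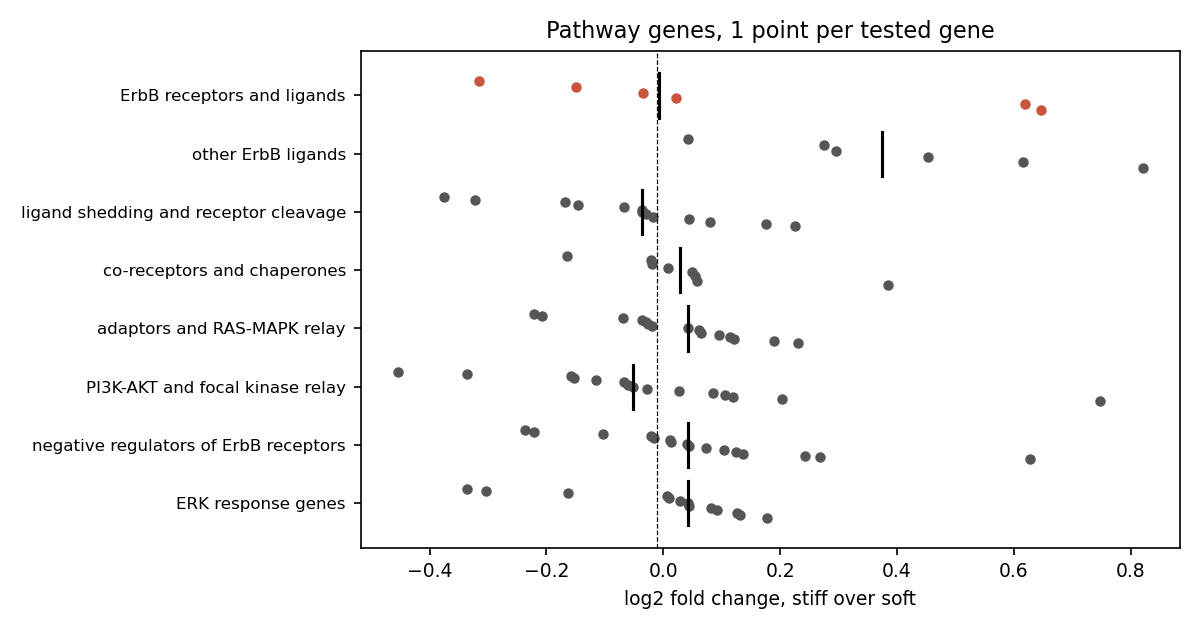
Log2 fold change, stiff over soft (x axis), of each tested gene of the ErbB receptors and ligands (red) and of 7 pathway lists (grey), with each list's median as a black bar and the median of all 14059 tested genes as a dashed line. List medians lie from -0.05 to 0.04, and at 0.37 for the other ErbB ligands, whose 6 tested genes are all right of 0.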

How the data were processed

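RNA sequencing of 8 libraries of mouse embryonic cardiomyocytes was analysed, 4 per substrate. The authors deposited raw read counts per Ensembl gene; per the submitters' processing notes the build was GRCm38 and the tools included HTSeq 0.6.1, TopHat2 2.0.14 and FastQC 0.11.2, along with edgeR, DESeq2, Cufflinks, TopHat and Bowtie2, with no step named for each. How strand was handled is not given in the sources used here. Noncoding counts were not used here. Symbols matched 29150 of 29844 rows. Analysis used R 4.3.3, edgeR 4.0.16, limma 3.58.1, DESeq2 1.42.0, Python 3.11.15, NumPy 2.4.6 and SciPy 1.17.1.

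Genes were kept by filterByExpr (minimum count 10, minimum total 15), scaled by TMM and tested by the robust quasi-likelihood F test of edgeR with substrate as the sole term and Benjamini-Hochberg adjustment (threshold 0.05). Log2 CPM used a prior count of 2. Correlations and marker sums were tested by two-sided exact permutation (40320 pairings for 8 libraries). The scripts were tested on simulated data. Reads are not independent molecules, since the labels name no molecular identifiers.

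The members and lists were chosen with earlier results of these data known. Genes named from each pathway list were the 2 with the smallest p and the 1 with the highest mean, within a rule that allowed 4 and 2; some genes that these rules name are not reported here. Equal library numbers deviated together over 14059 genes (r = 0.10, 0.18, 0.13 and 0.31 for numbers 1 to 4), though the labels state no shared litter or day; the alternatives were other scalings and filters, DESeq2, limma-voom, this block and each library left out.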

Additional observations from a re-analysis of the deposited data

Results flagged for a closer look

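Among 26 groups of 4 libraries (6 genes and 7 marker sums on each substrate), 2 held a library whose gap to its nearest neighbour, divided by the group's range, passed Dixon's critical value. Chance alone flags about 1 group in 20. Erbb3 in stiff 4 was at 8.38 CPM, against 27.6 to 29.8 CPM in the other stiff libraries. The sum of cardiomyocyte markers in soft 4 was 39435 CPM, where soft 1 to 3 had 21763 to 23281 CPM.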

How the results depend on the processing

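No receptor or ligand gene passed the adjusted threshold in any of the 17 alternatives, and the count of called genes was 0 in each except limma-voom with the replicate block, which called 8 genes, none of them a member. Erbb3, Erbb4 and Nrg1 kept their sign in all 17. Hbegf turned to 0.0030 with limma-voom and to 0.0022 with the replicate block. The block changed no call of the 6 genes or of the 7 pathway lists; soft 1 correlated slightly better with stiff 2 (0.11) than with stiff 1 (0.10). With each library left out in turn, log2 fold changes ranged from -0.069 to 0.14 for Erbb2, -0.31 to 0.13 for Egfr, -0.19 to 0.24 for Hbegf, -0.11 to 0.065 for Adam9, -0.27 to 0.11 for Cdc37, -0.16 to 0.051 for Map2k1, -0.0046 to 0.14 for Itgb1 and -0.0012 to 1.03 for Ereg. Without a change of sign they ranged from 0.51 to 0.93 for Erbb3, -0.53 to -0.13 for Erbb4, 0.38 to 0.90 for Nrg1, 0.20 to 0.84 for Btc, -0.50 to -0.094 for Akt1, 0.39 to 0.88 for Lrig3, 0.16 to 0.44 for Cbl, 0.14 to 0.39 for Sos2, 0.027 to 0.23 for Spred1, 0.58 to 0.98 for Stat5a, 0.32 to 0.50 for Cd44, 0.17 to 0.30 for Adam10, -0.47 to -0.28 for Rhbdf2, -0.54 to -0.10 for Ier3 and -0.46 to -0.096 for Myc. Counts of genes higher on stiff in the other pathway lists moved with single libraries too, to 7 of 16 negative regulators without stiff 1, to 3 of 8 co-receptors without stiff 2 and to 8 of 15 in the PI3K-AKT relay without soft 2 or stiff 4. Log2 ratios of marker sums ranged from -0.16 to 0.24 for cardiomyocytes, -0.076 to 0.17 for endothelium, -0.20 to 0.016 for epicardium, -0.13 to 0.11 for macrophages and -0.31 to 0.042 for Schwann cells; as a mean of log2 CPM the endothelial difference was -0.011. The cause of these sign changes was not tested. The 12 mean levels of the members moved by less than 1 SD with library totals alone and with RLE factors (24 values). Other scalings were not tried for the levels. Depth was 287 counts or more for each member in each library.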

Other observations

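The ErbB ligand genes Areg, Epgn and Nrg3 did not pass the filter on low counts. Areg (amphiregulin) had 223 counts in stiff 3, 21 in soft 3 and 12 in soft 4, and 0 in the other 5 libraries. Epgn (epigen) had 16 counts in soft 3 and 3 in soft 4 and 0 elsewhere. Nrg3, a neuregulin known mainly from the nervous system, had at most 13 counts, in soft 3.

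Tgfa, which encodes another ligand of Egfr, stood at 41.4 CPM in stiff 1 against 10.5 to 20.8 CPM in the other stiff libraries and 13.2 to 22.5 CPM on soft. Its log2 fold change was 0.30 (standard error 0.38).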
